A study of Mus musculus with 6 samples.

Results

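Interleukin-1 ligands, their receptors and the inflammasome genes that ready them for release were followed in the lungs of mice given the complement protein C1q. The 9 genes were chosen by name as members of this system, 9 of the 26890 gene symbols in the deposited table, and all 9 passed the filter on low counts that left 13473 genes for testing. The libraries came from wild-type C57BL/6 mice, 3 from the saline group and 3 from the group given C1q into the trachea at 20 µg per mouse, harvested at day 3. The treatment text of all 6 samples describes C1q instillation, and only the treatment label marks the saline group. Neither age nor sex was used here, and the labels do not say that each library is a separate animal, so p-values measure only the spread between these libraries. RNA came from a digested lung suspension, from the layer kept after a Percoll step gradient, and was read from the 5′ ends of transcripts. Fewer cells of a type and less RNA per cell cannot be told apart in such bulk samples.

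Total counts ran from 2227619 to 3650793 per library, and between 20520 and 23259 genes had a count. Levels are given as CPM, counts scaled to a common library size after TMM normalization, on which 3 counts were worth 0.830 to 1.35 CPM. Transcripts of epithelial, immune and endothelial cells were present in the layer kept. The alveolar type 2 gene Sftpc averaged 23530 CPM after saline and 22600 CPM after C1q. It ran from 15950 to 32860 CPM among the saline libraries and from 21460 to 24420 CPM among the C1q libraries. The leukocyte gene Ptprc averaged 146 and 138 CPM, and the endothelial gene Pecam1 518 and 440 CPM. These are levels in the layer kept and not in the whole lung, and what the gradient removed was not tested.

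Interleukin-1 is made as a pair of cytokines, IL-1 alpha and IL-1 beta, which bind the same receptor. That receptor, encoded by Il1r1, signals only once the accessory chain encoded by Il1rap has joined it. The system is held back by a secreted antagonist, encoded by Il1rn, and by a decoy receptor without signalling function, encoded by Il1r2. IL-1 beta and the related cytokine IL-18 are made as inactive precursors that caspase-1 cuts after a sensor such as NLRP3 has assembled an inflammasome. Transcript counts measure the RNA that encodes these precursors, and neither the precursor proteins nor the release of active cytokine. In the lung, macrophages, monocytes and neutrophils are known as sources of IL-1 beta, and epithelial, endothelial and mesenchymal cells respond to it.

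The ligand and antagonist genes lie on chromosome 2 of GRCm38. Il1a spans 129299610 to 129309972 and Il1b 129364570 to 129371139, both on the minus strand with 54.6 kb between them. Il1rn lies apart from them on the plus strand, from 24336853 to 24351494. The receptor genes Il1r2 (40074079 to 40125231) and Il1r1 (40225080 to 40317257) are neighbours on chromosome 1, while Il1rap is on chromosome 16 from 26581704 to 26730117. Il18 and Casp1 are both on chromosome 9, at 50554827 to 50581840 and 5298517 to 5307265, and Nlrp3 is on chromosome 11 from 59541568 to 59566956. All 9 are annotated as protein-coding. An antisense gene, Il1bos, overlaps the start of Il1b, and it had 1 to 4 counts per library against 197 to 557 for Il1b.

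Since counting began from 5′-end libraries, the sequences just before the annotated starts are shown for Il1b, for its neighbour Il1a and for Il1rn, the ligand genes whose levels are compared below. Each is the 250 bases before a RefSeq start on GRCm38.p6, 5′ to 3′ on the strand of the gene, with matches to the searched motifs in capitals. The windows are chr2:129371140-129371389 (minus strand) for Il1b, chr2:129309973-129310222 (minus strand) for Il1a and chr2:24336610-24336859 (plus strand) for the first of 3 listed starts of Il1rn.
Il1b: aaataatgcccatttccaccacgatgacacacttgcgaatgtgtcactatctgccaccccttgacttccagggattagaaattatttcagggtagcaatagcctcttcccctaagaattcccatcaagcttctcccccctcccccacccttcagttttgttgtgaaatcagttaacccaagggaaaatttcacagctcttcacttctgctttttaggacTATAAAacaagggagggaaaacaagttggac
Il1a: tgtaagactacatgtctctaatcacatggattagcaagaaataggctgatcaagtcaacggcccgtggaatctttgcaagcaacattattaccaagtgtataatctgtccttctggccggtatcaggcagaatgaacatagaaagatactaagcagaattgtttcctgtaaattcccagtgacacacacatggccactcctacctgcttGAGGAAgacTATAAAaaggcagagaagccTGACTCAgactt
Il1rn: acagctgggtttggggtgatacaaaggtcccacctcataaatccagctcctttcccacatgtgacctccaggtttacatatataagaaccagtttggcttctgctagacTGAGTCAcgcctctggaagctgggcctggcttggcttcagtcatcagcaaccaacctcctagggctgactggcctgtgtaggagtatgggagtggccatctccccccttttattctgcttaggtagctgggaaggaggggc
The motifs, searched on both strands, were TATAAA (the TATA box), TGANTCA (AP-1), GAGGAA (a PU.1 core) and the NF-kB consensus by its degenerate letters. TATAAA begins 31 bases before the start of Il1b and 32 bases before that of Il1a, and it was found in 12.4% of all 32851 windows of this length. TGANTCA begins 12 bases before the start of Il1a and 141 bases before that of Il1rn, and 6.75% of windows hold it. GAGGAA begins 41 bases before the start of Il1a, and 23.3% of windows hold it. The NF-kB consensus was not matched in these 3 windows, and 3.9% of all windows hold it. The matches do not overlap each other. The counts are per gene, so the 3 starts of Il1rn were not told apart.

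Of the 9 genes, 7 had a positive and 2 a negative log2 fold change, where 48.2% of all genes tested had a positive one. The negative ones were Casp1, at -0.19, and Nlrp3, which was level at -0.0075. Of the 9, 0 passed the edgeR quasi-likelihood test with Benjamini-Hochberg adjustment over all 13473 genes. That test called 0.0297% of all genes, the 4 genes called all being higher in C1q. At an unadjusted p under 0.05, 4 of the 9 were higher (Il1b, Il1rn, Il1r2 and Il1r1) and 0 lower, where 4.22% of all genes were higher and 3.94% lower. Without saline replicate 1, and likewise with DESeq2, 2 of the 9 had such a p, Il1b and Il1rn, beside 6.97% and 5.82% of all genes. In 5 of the 9 (Il1b, Il1rn, Il1r2, Il1r1 and Il1a) all 3 C1q libraries lay above all 3 saline libraries, which held for 8.12% of all genes. The reverse order held for 0 of the 9 and for 5.96% of all genes. The median log2 fold change was 0.23 over the 9 genes and -0.012 over all genes tested. The genes were chosen with earlier results of these libraries known, so these counts describe them and are not independent evidence of a direction.

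**Figure D1:**
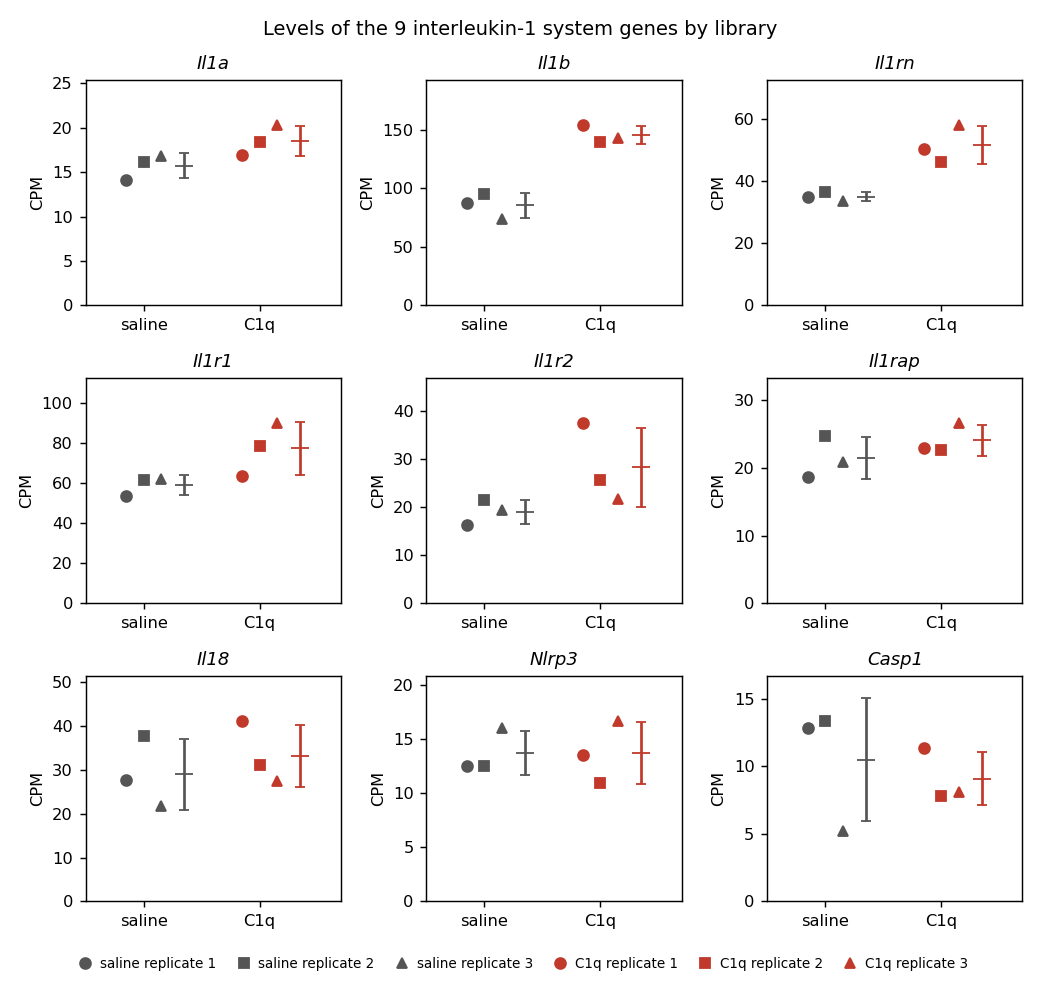
Levels of the 9 genes in CPM (vertical axes, from 0) in each of the 3 saline (grey) and 3 C1q (red) libraries, with the mean and SD of each group beside the points. For Il1b the C1q libraries sit at 139 to 154 CPM and the saline libraries at 73.6 to 94.7 CPM, while for Il1rap, Il18, Nlrp3 and Casp1 the groups overlap.

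Il1b encodes the precursor of IL-1 beta. It was at 87.8, 94.7 and 73.6 CPM in saline replicates 1 to 3. In C1q replicates 1 to 3 it was at 154, 139 and 143 CPM. Every C1q library lay well above every saline library, and the gap between the groups was wider than the range within either. Its mean was 85.4 ± 10.8 CPM (SD, n = 3) after saline and 145 ± 7.86 CPM (SD, n = 3) after C1q, a 1.7-fold difference. This gave a log2 fold change of 0.77 ± 0.15 (SE), with a 95% interval of 0.43 to 1.1. Il1b ranked 22nd of all genes by its unadjusted p of 0.000385 in edgeR, and its adjusted p was 0.236. The adjusted p depended on the tool and the filter: it was 0.039 with DESeq2, which called 0.230% of genes higher, and 0.00441 in edgeR with no filter on low counts, which called 373 genes in all. It was 0.132 to 0.854 in edgeR with 1 library left out.

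Il1a encodes the cytokine that binds the same receptor without needing caspase-1. It was at 14.2, 16.2 and 16.8 CPM in saline replicates 1 to 3 and at 16.9, 18.3 and 20.3 CPM in C1q replicates 1 to 3. The groups did not overlap, but the lowest C1q library and the highest saline library were nearly level. Its log2 fold change was 0.23 ± 0.21, with a 95% interval of -0.23 to 0.69 (edgeR adjusted p = 0.757). With 40 to 61 counts per library, counting alone gives a coefficient of variation of about 14.5%, above the 8.87% seen among the saline and the 9.34% among the C1q libraries.

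Il18 encodes the other precursor that caspase-1 cuts. In the order of the replicates, it was at 27.7, 37.7 and 21.7 CPM in saline and at 41.2, 31.0 and 27.5 CPM in C1q. The groups overlapped, saline replicate 2 lying above 2 of the C1q libraries. The log2 fold change was 0.21 ± 0.23, with a 95% interval of -0.30 to 0.73 (edgeR adjusted p = 0.804). It was 0.45 without saline replicate 2 and 0.021 without C1q replicate 1.

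Il1rn, which encodes the receptor antagonist, was at 35.0, 36.4 and 33.6 CPM in saline replicates 1 to 3 and at 50.6, 46.2 and 58.2 CPM in C1q replicates 1 to 3. All C1q libraries were above the narrow saline range. The saline mean was 35.0 ± 1.41 CPM and the C1q mean 51.7 ± 6.08 CPM, a 1.47-fold difference. On the log2 scale the fold change of 0.56 ± 0.16 had a 95% interval of 0.21 to 0.90 and an unadjusted p of 0.00466, and did not pass over all genes (edgeR adjusted p = 0.468).

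The ligand and its antagonist were higher in the same libraries, so their ratio was compared within each library, where no scaling between libraries enters. Il1b had 2.50, 2.59 and 2.18 counts per count of Il1rn in saline and 3.04, 3.00 and 2.44 in C1q. The groups overlapped, C1q replicate 3 lying below the first 2 saline replicates. The mean log2 ratio was 0.22 higher in C1q (two-sided exact permutation test, p = 0.3, adjusted p = 0.525 over 7 ratios, n = 3 each), or 0.145 without saline replicate 3. Between the 2 ligands, Il1b had 6.15, 5.79 and 4.34 counts per count of Il1a in saline and 9.07, 7.51 and 6.96 in C1q. All 3 C1q libraries were above the saline range in this ratio. The mean log2 ratio differed by 0.54, with p = 0.1 by the exact permutation test, the smallest that 3 against 3 libraries can give, and adjusted p = 0.525.

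**Figure D2:**
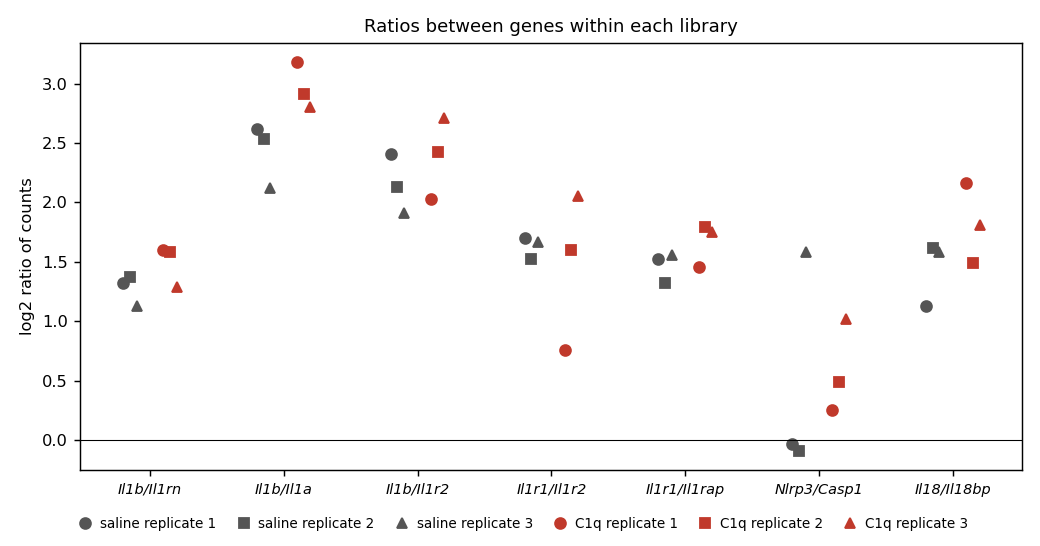
Log2 ratio of the counts of 2 genes within each library (vertical axis) for the 7 ratios compared (horizontal axis), saline in grey and C1q in red. The groups are separate for Il1b/Il1a, where the C1q libraries lie at 2.80 to 3.18 and the saline libraries at 2.12 to 2.62, and overlap for the other 6 ratios.

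On the receptor side, Il1r1, the signalling receptor, was at 53.7, 61.9 and 62.0 CPM in saline and at 63.6, 78.7 and 90.3 CPM in C1q, in the order of the replicates. The C1q libraries were all higher, the lowest of them by little, and they were spread more widely than the saline libraries. This was a log2 fold change of 0.38 ± 0.17, with a 95% interval of 0.014 to 0.76 (unadjusted p = 0.0434, edgeR adjusted p = 0.602). With a single library left out, its unadjusted p was 0.143 (saline replicate 1 left out), 0.0964 (C1q replicate 2) or 0.175 (C1q replicate 3), and with library size only, limma-voom or DESeq2 it was 0.0521 to 0.0872.

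Il1r2, the decoy receptor, was at 16.4, 21.5 and 19.4 CPM in saline and at 37.6, 25.8 and 21.7 CPM in C1q. Its C1q libraries also lay above the saline range, but C1q replicate 1 stood far above the other 2, and C1q replicate 3 was nearly level with saline replicate 2. The log2 fold change was 0.59 ± 0.24, with a 95% interval of 0.064 to 1.12 (unadjusted p = 0.0312, edgeR adjusted p = 0.602). It was 0.32 without C1q replicate 1, with an unadjusted p of 0.194. Il1rap, the accessory chain, was at 18.7, 24.7 and 20.9 CPM in saline and at 23.0, 22.6 and 26.6 CPM in C1q. The groups overlapped, and the log2 fold change was 0.17 ± 0.20 (95% interval -0.27 to 0.60, edgeR adjusted p = 0.821). It was 0.075 without saline replicate 1 and 0.28 without saline replicate 2.

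The balance of signalling to decoy receptor showed no common direction. Il1r1 had 3.25, 2.87 and 3.17 counts per count of Il1r2 in saline and 1.69, 3.04 and 4.13 in C1q, so the C1q libraries lay on both sides of the saline range. The mean log2 ratio differed by -0.16 (exact permutation p = 0.8, adjusted p = 0.9), and by 0.20 without C1q replicate 1. Il1r1 had 2.86, 2.50 and 2.95 counts per count of Il1rap in saline and 2.76, 3.47 and 3.37 in C1q, a difference of 0.20 on the log2 scale (exact permutation p = 0.3, adjusted p = 0.525), or 0.13 without saline replicate 2. Il1b had 5.31, 4.38 and 3.76 counts per count of Il1r2 in saline and 4.08, 5.37 and 6.53 in C1q, with overlap (difference 0.24, exact permutation p = 0.4, adjusted p = 0.56), and that difference ran from 0.076 without C1q replicate 3 to 0.41 without C1q replicate 1.

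The inflammasome genes lay at low levels, with no gap between the groups. Nlrp3, the sensor, was at 12.5, 12.6 and 16.1 CPM in saline and at 13.6, 10.9 and 16.7 CPM in C1q. Its means were 13.72 ± 2.03 and 13.73 ± 2.89 CPM, and its log2 fold change of -0.0075 ± 0.25 had a 95% interval of -0.56 to 0.55 (edgeR adjusted p = 0.996). Casp1, the protease, was at 12.9, 13.4 and 5.23 CPM in saline and at 11.3, 7.76 and 8.13 CPM in C1q. Saline replicate 3, with 14 counts, held the lowest value of the 6 and the other 2 saline libraries the highest. For Casp1 the log2 fold change was -0.19 ± 0.37 (95% interval -1.01 to 0.62, edgeR adjusted p = 0.898), and it moved between -0.51 without saline replicate 3 and 0.0077 without saline replicate 2.

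**Figure D3:**
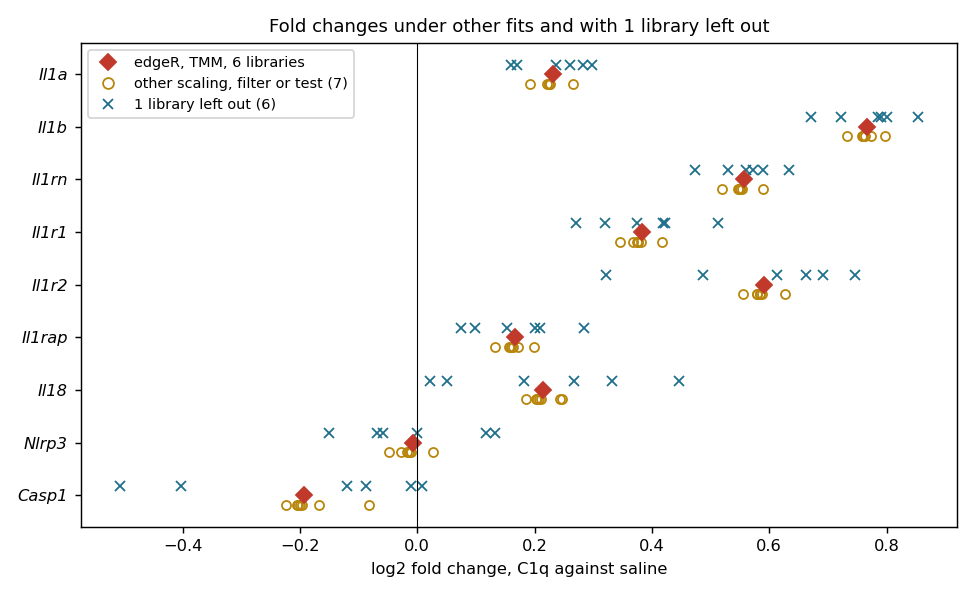
Log2 fold change of C1q against saline (horizontal axis) of the 9 genes in edgeR with TMM scaling (diamonds), under 7 other scalings, filters or tests (circles) and with each of the 6 libraries left out (crosses). Il1b stays between 0.67 and 0.85 throughout, and the points of Nlrp3 and Casp1 lie on both sides of 0.

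The sensor and the protease were also compared within libraries. Nlrp3 had 0.975, 0.940 and 3.00 counts per count of Casp1 in saline and 1.19, 1.40 and 2.03 in C1q, and the groups overlapped (difference 0.10 on the log2 scale, exact permutation p = 0.9, adjusted p = 0.9). It was -0.19 without saline replicate 2 and 0.65 without saline replicate 3. Il18 had 2.19, 3.07 and 3.00 counts per count of Il18bp, which encodes its soluble inhibitor, in saline and 4.46, 2.81 and 3.51 in C1q (difference 0.38, exact permutation p = 0.3, adjusted p = 0.525). That difference was 0.21 without C1q replicate 1 and 0.22 without saline replicate 1.

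Other genes of the pathway were taken from 5 lists holding 69 genes, of which 52 were tested. Over all 5 lists, 0 passed over all genes in either direction, 8 were higher and 0 lower at an unadjusted p under 0.05, beside 4.22% and 3.94% of all genes. Of the 52, 9 lay wholly above and 3 wholly below the saline libraries, beside 8.12% and 5.96% of all genes. Their median log2 fold change was 0.16. Of these 8, 5 came from the list of genes that IL-1 is known to induce, which had 13 tested members.

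**Figure D4:**
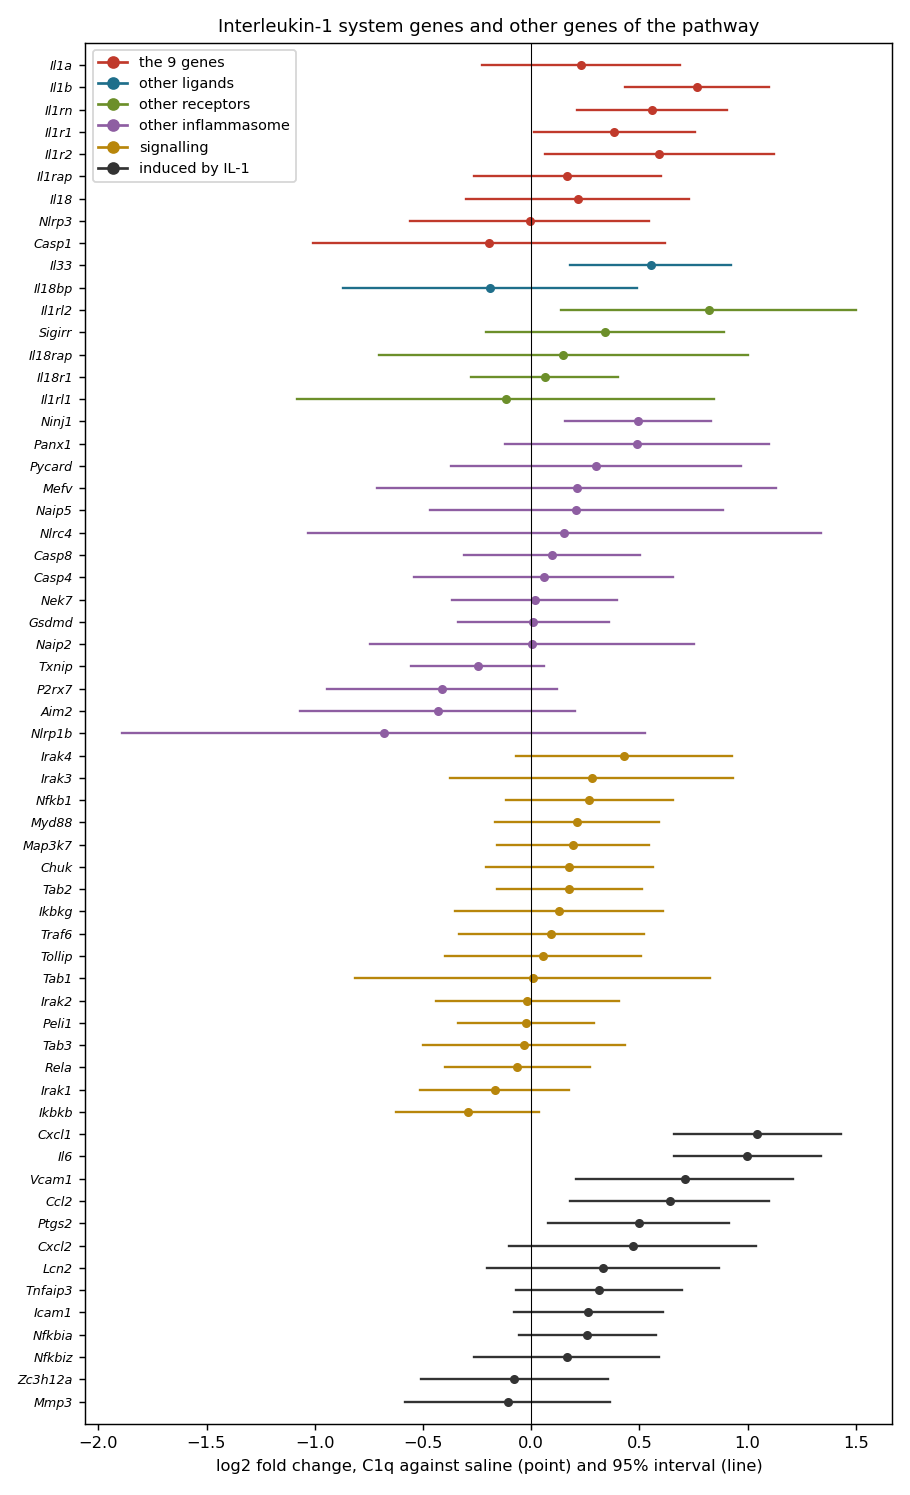
Log2 fold change of C1q against saline (points) with its 95% interval (lines) for the 9 genes (red) and the 52 tested genes of the 5 other lists. The intervals of Il1b, Il1rn, Il1r1 and Il1r2 lie above 0, as do those of 8 other genes, Il6 and Cxcl1 with the smallest p-values among them.

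Genes that IL-1 signalling is known to induce had a median log2 fold change of 0.33, with 11 of 13 tested members positive (48.2% of all genes) and 6 with all C1q libraries above the saline range (8.12% of all genes). Il6, an acute phase cytokine, was at 105, 121 and 131 CPM in saline and at 236, 217 and 262 CPM in C1q. Cxcl1, a neutrophil attractant, was at 108, 79.3 and 104 CPM in saline and at 215, 169 and 217 CPM in C1q. All C1q libraries lay above all saline libraries for both, with log2 fold changes of 1.00 ± 0.16 for Il6 (edgeR adjusted p = 0.1) and 1.04 ± 0.17 for Cxcl1 (0.136). Vcam1, an endothelial adhesion molecule, followed at 0.71 ± 0.23 (0.532). The list also held genes near 0: the feedback regulators Nfkbiz and Zc3h12a were at 0.16 ± 0.19 and -0.078 ± 0.20, and Mmp3 at -0.11 ± 0.21. Many of these genes also answer to other cytokines and to Toll-like receptors, so the list is not particular to IL-1.

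Of 17 tested genes that carry the signal from the receptor, 0 had an unadjusted p under 0.05, beside 4.22% of all genes higher and 3.94% lower. Of the 17, 11 were positive (48.2% of all genes) and 6 negative, and the median log2 fold change was 0.093. The smallest p-values belonged to Ikbkb, a kinase of the NF-kB pathway, at -0.29 ± 0.15 (edgeR adjusted p = 0.618), Irak4, a kinase next to the receptor, at 0.43 ± 0.23 (0.625), and Nfkb1, an NF-kB subunit, at 0.27 ± 0.18 (0.678). The adaptor gene Myd88 averaged 91.7 ± 15.7 CPM after saline and 106 ± 13.5 CPM after C1q.

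Among 15 other tested inflammasome genes, 1 was higher and 0 lower at an unadjusted p under 0.05, beside 4.22% and 3.94% of all genes, and the median log2 fold change was 0.058. Leaving out saline replicate 1 or C1q replicate 1 gave 1 higher and 1 lower, and leaving out C1q replicate 3 gave 2 higher and 0 lower. In those 3 fits 6.97%, 5.36% and 6.93% of all genes had such a p in either direction. With all 6 libraries the gene was Ninj1, which encodes a protein of plasma membrane rupture. It was at 48.9, 44.5 and 41.1 CPM in saline and 67.5, 65.3 and 56.4 CPM in C1q (log2 fold change 0.49 ± 0.15, edgeR adjusted p = 0.522). Txnip, a redox regulator, was at -0.25 ± 0.14 (0.641), its 3 C1q libraries lying below the saline libraries, and Panx1, which encodes a channel that releases ATP, at 0.49 ± 0.28 (0.643). P2rx7, the channel opened by ATP outside the cell, was at -0.41 ± 0.24 (0.647), also with its C1q libraries below the saline range. The pore gene Gsdmd averaged 34.2 ± 2.39 CPM after saline and 34.5 ± 1.90 CPM after C1q.

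Of the wider IL-1 family, Il33, an alarmin of stromal and epithelial cells, was at 59.5, 63.2 and 56.4 CPM in saline and 84.9, 72.7 and 106 CPM in C1q, with a log2 fold change of 0.55 ± 0.17 (edgeR adjusted p = 0.513). The inhibitor Il18bp was at -0.19 ± 0.31 (0.879), and Il1f9, an older symbol of the cytokine gene Il36g, had 1 to 10 counts per library and was not tested. Il1rl2, the IL-36 receptor gene, which lies 7.35 kb from Il1r1 on chromosome 1, was at 13.2, 5.26 and 10.1 CPM in saline and 18.8, 15.5 and 16.7 CPM in C1q. The C1q libraries were all above the saline range, with 37 to 68 counts per C1q library and 13 to 41 per saline library (log2 fold change 0.82 ± 0.31, edgeR adjusted p = 0.598). The family regulator Sigirr was at 0.34 ± 0.25 (0.708) and Il18r1 at 0.063 ± 0.15 (0.925). Summed over tested genes, Il33 and Il18bp together were at 63.5 to 75.3 CPM in saline and 83.6 to 113 CPM in C1q. The receptors summed to 89.5 to 108 CPM and 111 to 119 CPM, so neither sum overlapped between the groups. By members, only Il33 (1 of 2) and Il1rl2 (1 of 5) lay wholly above the saline libraries, beside 8.12% of all genes. Il18bp and Il1rl1, the latter at -0.12 ± 0.44 (edgeR adjusted p = 0.956), were negative.

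The genes whose levels were most like those of Il1b were found by the root mean square difference in log2 CPM, each gene centred on its own mean, over the 6 libraries and 7735 genes with a mean of at least 20 CPM. The nearest 5 were Bgn, a matrix proteoglycan (0.082), Polr1c, an RNA polymerase subunit (0.087), Cfp, the complement factor properdin (0.093), Ptgr1, a prostaglandin reductase (0.094), and Mmp19, a matrix metalloproteinase (0.095). Among the other 8 genes of the system the nearest was Il1rn, at 0.17 and place 51 of the 7735, then Il1r2 at 0.27 and place 499. Il1a, Nlrp3 and Casp1 averaged under 20 CPM and were not placed.

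Markers of the cells that could carry these transcripts were followed beside the 9 genes, as sums per library and by their members. The neutrophil list, with 6 of 8 genes tested, summed to 54.7 to 95.9 CPM in saline and 63.2 to 112 CPM in C1q. Of the 6, 5 had a positive log2 fold change (48.2% of all genes) and 0 an unadjusted p under 0.05, beside 4.22% of all genes higher and 3.94% lower. Ly6g had 1 count in all 6 libraries together. Retnlg, of mature neutrophils, averaged 18.9 and 28.9 CPM (unadjusted p = 0.0518), and S100a8 averaged 14.3 and 15.1 CPM. The classical monocyte list (6 of 6 tested) summed to 384 to 458 CPM in saline and 530 to 677 CPM in C1q, with no overlap. Fn1 held the largest part of that sum. It alone of the 6 lay wholly above the saline libraries (8.12% of all genes), and each other member overlapped between the groups. In the list 5 of 6 were positive (48.2% of all genes) and 2 were higher at an unadjusted p under 0.05 (4.22%). These were Fn1, also a matrix gene of fibroblasts, which averaged 255 and 424 CPM (0.00168), and Vcan, at 12.8 and 24.3 CPM (0.0417). Ccr2 averaged 15.8 and 21.0 CPM and Ly6c2 98.3 and 103 CPM.

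Macrophage markers differed among themselves. The alveolar macrophage list (8 of 8) summed to 1196 to 2806 CPM in saline and 2840 to 3507 CPM in C1q, mostly from Chil3, which averaged 1369 and 2558 CPM. Chil3 (0.0110) and Plet1, at 103 and 134 CPM (0.0299), were the 2 members with an unadjusted p under 0.05, beside 4.22% of all genes higher at such a p. Both were higher in each C1q library than in any saline library (8.12% of all genes). Of the 8, 5 were positive (48.2% of all genes) and 3 negative, the median log2 fold change being 0.021. Marco averaged 23.1 and 20.9 CPM. The interstitial macrophage list (6 of 7) had a median log2 fold change of 0.77, with 5 of 6 positive (48.2% of all genes). In it 4 lay wholly above the saline libraries (8.12% of all genes) and 3 were higher at an unadjusted p under 0.05 (4.22%). Those 3 were the genes of C1q itself: C1qa averaged 22.4 and 46.5 CPM (log2 fold change 1.05 ± 0.21, unadjusted p = 0.00036, edgeR adjusted p = 0.231), C1qb 24.0 and 43.8 CPM (0.0318) and C1qc 14.3 and 25.7 CPM (0.0053). By unadjusted p, C1qa ranked 21st of all genes, just before Il1b. The sum of the list overlapped between the groups, at 297 to 493 CPM and 378 to 519 CPM. Lyve1 held the largest part of it, averaging 278 and 239 CPM where the sum averaged 411.5 and 447.8 CPM. It was also the only tested member with a negative log2 fold change (-0.22 ± 0.22), so the sum says little of the other members.

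The leukocyte list (4 of 4, at 526 to 733 CPM and 656 to 803 CPM) and the dendritic cell list (5 of 6, at 95.5 to 109 CPM and 96.6 to 127 CPM) overlapped between the groups. Neither had a member with an unadjusted p under 0.05, beside 4.22% of all genes higher and 3.94% lower. The fibroblast list (7 of 7) also overlapped as a sum, at 4236 to 6248 CPM and 4520 to 5711 CPM, of which Inmt made up 3819 and 3295 CPM on average. By its members, 4 of 7 lay wholly above the saline libraries, beside 8.12% of all genes. Pi16 (33.3 and 52.8 CPM, unadjusted p = 0.00877) and Dpt (276 and 385 CPM, 0.0135) were higher at an unadjusted p under 0.05, as were 4.22% of all genes. The endothelial list (6 of 6) ran from 3076 to 3502 CPM and from 2633 to 3248 CPM. In it 6 of 6 were negative, beside 6973 of all 13473 genes, and 0 had an unadjusted p under 0.05, beside 3.94% of all genes lower.

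The summed level of 9 genes induced by tissue dissociation was lower in every C1q library, at 6959 to 7578 CPM in saline and 6083 to 6191 CPM in C1q. Of the 9, 7 were negative and 2 positive (48.2% of all genes positive), with 4 wholly below the saline libraries (5.96% of all genes). Hspa1b (38.2 and 25.0 CPM, unadjusted p = 0.00614) and Egr1 (1463 and 1107 CPM, 0.0177) were the 2 with an unadjusted p under 0.05, beside 3.94% of all genes lower. Dnajb1, at 172 and 212 CPM, lay wholly above the saline libraries. The haemoglobin list (4 of 4) summed to 117 to 271 CPM in saline and 37.9 to 189 CPM in C1q, with overlap. In it 4 of 4 were negative, beside 6973 of all 13473 genes. Of them 0 had an unadjusted p under 0.05, beside 3.94% of all genes lower. The part of these cell types, of blood and of the dissociation response in the levels of the 9 genes was not tested.

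**Figure D5:**
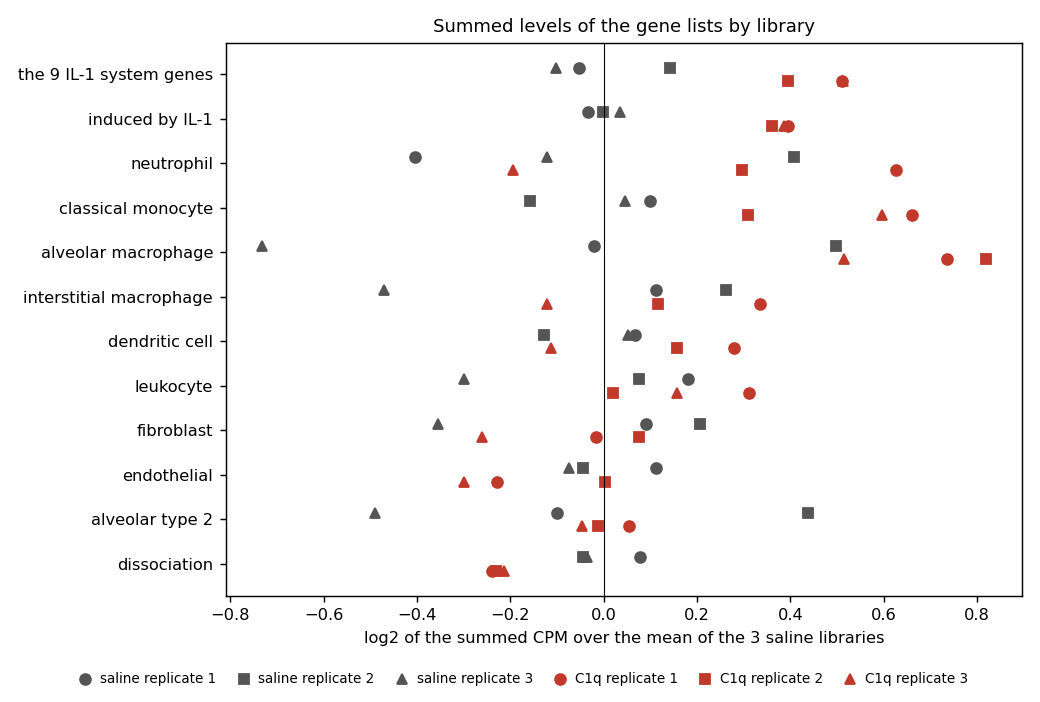
Log2 of the summed CPM of the 9 genes, of the genes induced by IL-1 and of the marker lists in each library over the mean of the 3 saline libraries (horizontal axis), saline in grey and C1q in red. The 9 genes together sum to 269 to 319 CPM in saline and 380 to 412 CPM in C1q, and of the lists drawn the groups are also separate for the genes induced by IL-1 and for the classical monocyte, alveolar macrophage and dissociation lists. In the classical monocyte list only Fn1 lay wholly above the saline libraries by itself.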

How the data were processed

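The authors deposited 1 table of raw counts, with a row per gene symbol and a column per library, per the file headers. Tools listed in the submitters' processing notes are Bowtie2 2.4.2 and cutadapt 2.1.0, and the build is GRCm38. The counting method, annotation, strand setting and use of molecular identifiers were each not given in the sources used here. Without strand, overlapping genes cannot be told apart, and without molecular identifiers counting errors may be understated.

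Groups came from the treatment labels, with replicates numbered in order of deposition. All 15 pairs of libraries differed beyond counting noise (chi-square per degree of freedom 4.74 to 14.6), so none was treated as a copy of another. This does not show that they are separate animals. With edgeR 4.0.16 (R 4.3.3), counts were filtered (filterByExpr), TMM-scaled and put to the quasi-likelihood test, two-sided with treatment as the only term, over 13473 genes, with Benjamini-Hochberg adjustment and a threshold of 0.05. Standard errors and 95% intervals were taken from the F statistic. The fit was tested on simulated data. Ratios used counts plus 0.5. Alternatives were other scalings and filters, DESeq2 1.42.0, limma-voom (limma 3.58.1) and leaving out each library. The 9 genes, every tested list's 3 genes of smallest p and the 5 genes most like Il1b were named by rule, and other genes were named after their values were seen. Members and lists were chosen with earlier results of these data known. Positions come from GENCODE M21, promoters from RefSeq, which matched all 9 genes.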

Additional observations from a re-analysis of the deposited data

How the results depend on the processing

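Across 13 alternatives, the log2 fold changes of Il1a, Il1b, Il1rn, Il1r1, Il1r2, Il1rap and Il18 kept their sign, and Il1b ran from 0.67 to 0.85 with 1 library left out and from 0.73 to 0.80 under other scalings, filters and tests. Il1b passed the threshold with DESeq2 (log2 fold change 0.76, adjusted p = 0.039) and with no filter on low counts (0.80, adjusted p = 0.00441), and in none of the other 11. The other 8 genes passed in none of the 13. The number of genes called was 4, and it was 373 with no filter (158 higher and 215 lower), 32 with DESeq2 and 0 to 10 with 1 library left out, 0 without saline replicate 1. The number of other pathway genes with an unadjusted p under 0.05, 8 in the main fit, was 8 to 10 under the alternatives, beside 5.36% to 11.7% of all genes. It was 7 higher and 1 lower without saline replicate 1 or without C1q replicate 1, and 9 higher and 1 lower with no filter. In the other alternatives all were higher.

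Nlrp3, at -0.0075, changed sign with no filter (0.027), without saline replicate 3 (0.12) or with C1q replicate 2 removed (0.13), and ran from -0.15 to 0.13 with 1 library left out. Casp1 changed sign without saline replicate 2 (0.0077), with a range of -0.51 to 0.0077. The log2 ratio Il1r1/Il1r2 changed sign without C1q replicate 1 (0.20, range -0.45 to 0.20), and Nlrp3/Casp1 without saline replicate 1 (-0.16), saline replicate 2 (-0.19) or C1q replicate 3 (-0.12), with a range of -0.19 to 0.65. With 1 library left out, the other ratio differences ran from 0.145 to 0.321 for Il1b/Il1rn, 0.39 to 0.64 for Il1b/Il1a, 0.076 to 0.41 for Il1b/Il1r2, 0.13 to 0.31 for Il1r1/Il1rap and 0.21 to 0.54 for Il18/Il18bp. Of the 9 genes, 2 to 4 had an unadjusted p under 0.05 across the alternatives, where 5.36% to 11.7% of all genes had one. The cause was not tested. No paired analysis was possible because the labels give the groups no shared replicate numbers. At 14 to 61 counts per library, Il1a, Nlrp3 and Casp1 were the genes most limited by depth.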

Other observations

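Saline replicate 3 held the lowest level of several inflammasome and leukocyte genes, chosen here after their values were seen. Casp1 stood there at 5.23 CPM (14 counts) against 12.9 and 13.4 CPM in the other saline libraries, and Pycard, the adaptor that joins sensor and caspase-1, at 8.59 CPM against 21.9 and 19.0 CPM. Nlrp3 did not share this, at 16.1 CPM against 12.5 and 12.6 CPM. Aim2, at 18.7 CPM against 9.64 and 13.4 CPM, and Nlrp1b, at 9.71 CPM against 5.14 and 2.43 CPM, were instead highest of all 6 libraries there. Casp4, at 15.7 CPM, was the highest of the saline libraries. The leukocyte gene Ptprc, at 141 CPM against 180 and 115 CPM, was not lowest there. The leukocyte list summed to 526 CPM in that library against 733 and 683 CPM, and the alveolar macrophage list to 1196 CPM against 1959 and 2806 CPM.

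Among IL-1 induced genes too low to be tested, Saa3, an acute phase gene, had 7, 8 and 6 counts in saline and 22, 14 and 6 in C1q. Csf2, a macrophage growth factor gene, had 5, 6 and 1 counts in saline and 7, 9 and 8 in C1q. Csf3 and Cxcl5 had 0 to 7 counts per library.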
